A study of Mus musculus with 6 samples.

Results

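The 10 genes described here, Cd63, Trem2, Gpnmb, Mmp12, Spp1, Cd9, Ms4a7, Lgals1, Lgals3 and Clec4b1, are markers of lipid-associated and recruited liver macrophages, and all 10 were measured among the 16623 genes of the table. They were chosen with their WT and SIRT7-/- mouse means in macrophages, monocytes and dendritic cells in view. Their differences between the genotypes in those cells are therefore given as a description. Counts of calls there are printed beside the share of all genes, and nothing is read from them.

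Single-cell RNA sequencing was performed on the livers of 3 WT and 3 SIRT7-/- mice aged 5 to 6 months, as 1 library per mouse on the 10x Genomics 3' platform. SIRT7 is a sirtuin deacetylase, and mice lacking it develop fatty liver and NASH spontaneously on a chow diet, so no dietary or drug treatment separated the groups. The livers were dissociated by collagenase perfusion, and equal numbers of hepatocytes and non-parenchymal cells were mixed, so the share of any class among all cells was set in part by the mixing. The 11610 cells carried between 2511947 UMIs (unique molecular identifiers, 1 per counted mRNA molecule) in WT mouse 2 and 11069411 in SIRT7-/- mouse 1.

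Kupffer cells are the resident macrophages of the liver and line its sinusoids. In fatty liver, monocytes from the blood enter the tissue and become macrophages, and part of the macrophages take on a lipid-associated state with high expression of receptors, lysosomal proteins and secreted proteins for handling lipid and cell debris. TREM2, a lipid-sensing receptor that signals through the adaptor TYROBP, is the best known gene of that state.

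Promoter sequences were read for the members because the genes were chosen for a shared direction while lying at separate places in the genome, on chromosomes 5, 6, 9, 10, 14, 15, 17 and 19. Of the 10 members, 9 had a promoter in the RefSeq promoter table (GRCm38.p6), with 12 start sites among them, and Lgals1 had no entry. The AP-1 site TGANTCA was searched on both strands in the 250 bases before each start, and was present in 3 of 12 member promoters and in 6.75% of all 32851 promoters. The PU.1 core GAGGAAGT, bound by ETS factors of myeloid cells, was present in 2 of 12 and in 2.44% of all promoters. The E-box CACGTG of the MiT/TFE and MYC factors was present in 0 of 12 and in 6.02% of all. These matches are letters in a window and were not measured as binding. The 3 promoters with the AP-1 letters (9 bases before the start for Trem2, 44 for Mmp12 and 81 for Ms4a7), and the upstream Mmp12 start, which holds the PU.1 letters on the reverse strand 88 bases before it, are shown 5' to 3' with the match in capitals. Their positions are chr17:48346151-48346400 (plus strand) for Trem2, chr9:7344147-7344396 and chr9:7347124-7347373 (plus strand) for the upstream and downstream Mmp12 starts, and chr19:11334696-11334945 (minus strand) for the downstream Ms4a7 start.
Trem2: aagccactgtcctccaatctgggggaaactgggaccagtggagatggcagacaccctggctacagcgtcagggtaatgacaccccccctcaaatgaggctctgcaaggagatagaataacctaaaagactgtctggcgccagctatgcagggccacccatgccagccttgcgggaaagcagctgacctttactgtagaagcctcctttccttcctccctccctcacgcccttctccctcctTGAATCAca
Mmp12, upstream start: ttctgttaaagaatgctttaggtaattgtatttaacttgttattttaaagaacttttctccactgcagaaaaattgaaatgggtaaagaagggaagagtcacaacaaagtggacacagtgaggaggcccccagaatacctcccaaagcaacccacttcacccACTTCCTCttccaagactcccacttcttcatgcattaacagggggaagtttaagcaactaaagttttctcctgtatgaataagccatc
Mmp12, downstream start: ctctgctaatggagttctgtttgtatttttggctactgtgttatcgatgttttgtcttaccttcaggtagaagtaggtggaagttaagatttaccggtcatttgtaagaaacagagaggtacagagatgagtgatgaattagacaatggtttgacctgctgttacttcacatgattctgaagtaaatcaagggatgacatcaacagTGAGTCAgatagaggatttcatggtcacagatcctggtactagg
Ms4a7, downstream start: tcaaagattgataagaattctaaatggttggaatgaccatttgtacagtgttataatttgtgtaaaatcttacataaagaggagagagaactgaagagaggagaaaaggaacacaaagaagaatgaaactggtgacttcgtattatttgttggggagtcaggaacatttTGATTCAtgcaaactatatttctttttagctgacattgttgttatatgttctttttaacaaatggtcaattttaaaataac

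Cells were sorted into classes by clustering and by markers. The hepatocyte-like class held 1197 cells. A larger cluster of 1753 cells also scored highest for hepatocyte markers. That cluster was left unnamed and out of every class, because its 10 leading genes held 3 erythroid markers and 1 hepatocyte marker. The macrophage-like class held 2933 cells, with 47, 43 and 166 in WT mice 1 to 3 and 2196, 416 and 65 in SIRT7-/- mice 1 to 3. Its label held against its markers: Clec4f, the defining lectin of Kupffer cells, averaged 35.0, 24.3 and 30.4 CP10K (UMIs per 10000 UMIs of a cell, averaged over the cells of a mouse) in WT mice 1 to 3 and 26.9, 27.0 and 31.5 in SIRT7-/- mice 1 to 3. The monocyte-like class held 799 cells, with 40, 29 and 112 in the WT mice and 354, 229 and 35 in the SIRT7-/- mice; its leading genes included both F13a1 and the dendritic cell gene Cd209a. The conventional dendritic-like class (349 cells) and the plasmacytoid dendritic-like class (279 cells) had 20 or more cells in only 1 WT mouse, WT mouse 3, so their values are given without a fit. A further 384 cells with macrophage and lymphocyte markers together were set aside, and they made up 2.08%, 0% and 15.7% of the macrophage-like and mixed cells of WT mice 1 to 3 and 10.7%, 17.5% and 2.99% of those of SIRT7-/- mice 1 to 3.

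In macrophage-like cells, every member that passed the filter on low values had a higher mean in SIRT7-/- than in WT mice. These were 9 of the 10 members, with a median log2 fold change of 2.0 beside -0.03 over all genes tested. The 3 SIRT7-/- mice lay above the 3 WT mice for 8 of the 9, beside 7.24% of all genes tested, and 4 passed an adjusted p of 0.05 in limma, beside 0.225% of all genes tested. The 4 calls were Gpnmb, Mmp12, Ms4a7 and Clec4b1, and they became 0 without WT mouse 1, WT mouse 2 or SIRT7-/- mouse 3, 1 without WT mouse 3, and 2 or 5 when SIRT7-/- mouse 2 or mouse 1 was dropped. The members were chosen on this contrast, so nothing is read from these counts.

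Among the receptors, Trem2 averaged 0.124, 0 and 0.412 CP10K in WT mice 1 to 3 and 0.994, 0.447 and 0.701 in SIRT7-/- mice 1 to 3. The genotypes did not overlap, but WT mouse 3 lay close to SIRT7-/- mouse 2, and the 0 of WT mouse 2 allows up to 0.205 CP10K (3 UMIs of the total of its macrophage-like cells). The log2 fold change was 2.20 ± 0.64 (SE). Clec4b1, a C-type lectin receptor known from dendritic cells, averaged 0.546, 0.246 and 0.685 CP10K in the WT mice and 2.13, 2.07 and 2.18 in the SIRT7-/- mice. Here the SIRT7-/- mice had an SD of only 0.0566 CP10K, and the log2 fold change was 2.11 ± 0.32. Ms4a7, a multi-pass membrane protein of the MS4A family that marks macrophages, averaged 0.348, 0.326 and 0.422 CP10K in the WT mice and 1.58, 1.23 and 1.54 in the SIRT7-/- mice. Ms4a7 and Clec4b1 were the members whose groups stood furthest apart for their spread, with a log2 fold change of 1.85 ± 0.28 for Ms4a7.

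The lysosomal and surface proteins differed less evenly among mice. Cd63, a tetraspanin of late endosomes and lysosomes, averaged 0.0454, 0.157 and 0.724 CP10K in the WT mice and 1.68, 1.18 and 1.55 in the SIRT7-/- mice, a log2 fold change of 2.60 ± 0.59. WT mouse 3 held most of the WT signal, with 22 UMIs against 1 and 4 in WT mice 1 and 2. Gpnmb, a transmembrane glycoprotein of lipid-laden macrophages, was nearly absent from WT cells, with 0, 0 and 1 UMI, against 118, 43 and 24 UMIs in the SIRT7-/- mice. Its means were 0, 0 and 0.0259 CP10K in the WT mice and 0.226, 0.331 and 0.541 in the SIRT7-/- mice. Per total UMIs of the pooled cells the ratio was 19.9 (exact 95% interval 3.52 to 789, for counting error only), and the fitted log2 fold change of 2.79 ± 0.50 depends on the offset added before the log. Cd9, another tetraspanin, averaged 0.226, 0.446 and 0.610 CP10K in the WT mice and 0.924, 0.809 and 0.571 in the SIRT7-/- mice. It was the only tested member whose genotypes overlapped in these cells, with a log2 fold change of 0.84 ± 0.37.

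**Figure D1:**
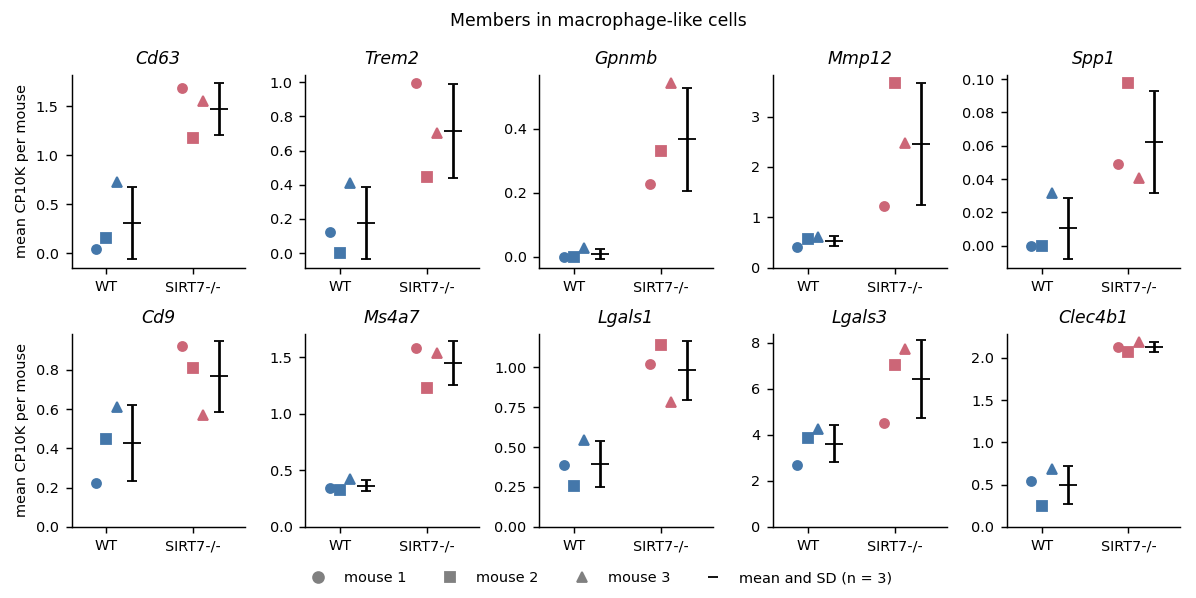
Mean CP10K per mouse of each of the 10 members in macrophage-like cells, with WT mice in blue, SIRT7-/- mice in red, marker shapes for the mouse number, and the mean and SD of the 3 mice beside them; each panel has its own scale. Among the tested members genotypes overlap only for Cd9, and Clec4b1 and Ms4a7 show the tightest groups. Spp1 was below the filter, and the point of SIRT7-/- mouse 3 for Mmp12 (2.47) rests on 1 cell.

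The secreted members rested on few cells. Mmp12, the macrophage elastase, averaged 0.407, 0.567 and 0.608 CP10K in the WT mice and 1.23, 3.66 and 2.47 in the SIRT7-/- mice, a log2 fold change of 2.0 ± 0.35. A single macrophage-like cell of SIRT7-/- mouse 3 held 173 of that mouse's 181 Mmp12 UMIs, and the same cell, of 11319 UMIs, held 121 UMIs of Lgals3, 19 of Cd63, 15 of Gpnmb, 12 of Cd9, 5 of Trem2 and all 3 Spp1 UMIs of the mouse's macrophage-like cells. With the cell of most member UMIs left out of each mouse, Mmp12 averaged 0.415, 0.580 and 0.611 CP10K in the WT mice and 1.18, 3.59 and 0.119 in the SIRT7-/- mice, so the genotypes overlapped, and the log2 fold change was 0.66 ± 1.07. In the other SIRT7-/- mice Mmp12 came from 162 of 2196 and 78 of 416 cells, of which 17 and 12 held 10 or more UMIs, while 0 WT cells did. Spp1, the gene of the secreted phosphoprotein osteopontin, was below the filter, with 0, 0 and 1 UMI in the WT mice and 26, 14 and 3 in the SIRT7-/- mice. Its 43 SIRT7-/- UMIs came from 6, 4 and 1 cells, and the pooled ratio of 4.62 had an exact 95% interval of 0.786 to 187, which includes 1.

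The galectins, lectins that bind beta-galactosides, were higher by smaller factors. Lgals1 averaged 0.387, 0.254 and 0.542 CP10K in the macrophage-like cells of the WT mice and 1.02, 1.14 and 0.780 in those of the SIRT7-/- mice, a log2 fold change of 1.25 ± 0.33. Lgals3 averaged 2.70, 3.87 and 4.25 CP10K in the WT mice and 4.53, 7.03 and 7.73 in the SIRT7-/- mice, a log2 fold change of 0.81 ± 0.24. SIRT7-/- mouse 1 lay next to WT mouse 3 for Lgals3, while the other SIRT7-/- mice stood well above all WT mice.

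Seen per cell, with each cell thinned to 1000 UMIs so that depth was equal, 59.5%, 55.3% and 55.7% of the macrophage-like cells of WT mice 1 to 3 held no UMI of any member, against 30.8%, 30.2% and 32.8% in SIRT7-/- mice 1 to 3. Cells with 3 or more members were 0 of 42, 0 of 38 and 6 of 140 in the WT mice (exact 95% upper limits 8.41%, 9.25% and 9.09%) and made up 9.29%, 10.6% and 9.84% in the SIRT7-/- mice. The exact intervals of the SIRT7-/- mice reached down to 8.05%, 7.73% and 3.70%, so they overlapped those of the WT mice. In T-like and NK-like cells, which should lack the lipid-associated state, the share with 3 or more members was 0% to 0.649% in WT and 2.67% to 3.23% in SIRT7-/- mice, and in hepatocyte-like cells it was 0% in every mouse. At the same thinning a Clec4b1 UMI was found in 7.14%, 2.63% and 5.00% of the WT and 18.2%, 16.9% and 14.8% of the SIRT7-/- macrophage-like cells, beside 0% to 1.56% of T-like and NK-like cells. Without thinning, median depths of macrophage-like cells ran from 1911 UMIs in WT mouse 3 to 5329 in SIRT7-/- mouse 3.

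The macrophage-like cells fell into 3 clusters that the mice filled unequally. One was led by Retnla, Cd207 and Marco, one by C1qb, C1qa and Axl, and one by Hmox1, Mmp12 and Vsig4; Ms4a7 and Mmp12 were themselves among the leading genes of the C1qb/Axl and Hmox1/Mmp12 clusters, so their levels between clusters are no result. The Retnla/Cd207 cluster held 76.6%, 74.4% and 36.1% of the macrophage-like cells of WT mice 1 to 3 and 17.1%, 5.77% and 27.7% of those of SIRT7-/- mice 1 to 3. Within it alone, Ms4a7 averaged 0.412, 0.265 and 0.425 CP10K in the WT mice and 1.19, 1.94 and 1.10 in the SIRT7-/- mice. Clec4b1 in the same cells averaged 0.613, 0.216 and 0.664 CP10K in the WT mice and 1.52, 1.56 and 1.45 in the SIRT7-/- mice. For Ms4a7 and Clec4b1 the genotypes did not overlap inside this cluster. Neither passed the threshold in a limma fit of the cluster alone, for which SIRT7-/- mouse 3 had too few cells. The part of the clusters in the members' differences was not tested. Lgals3 also did not overlap there, at 2.75 to 3.27 CP10K in WT and 3.56 to 5.50 in SIRT7-/- mice, and Trem2 did not by a narrow margin, at 0 to 0.554 in WT and 0.563 to 0.598 in SIRT7-/- mice, whereas Cd63, Gpnmb, Mmp12, Spp1, Cd9 and Lgals1 overlapped. SIRT7-/- mice 2 and 3 had only 24 and 18 cells in this cluster.

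**Figure D2:**
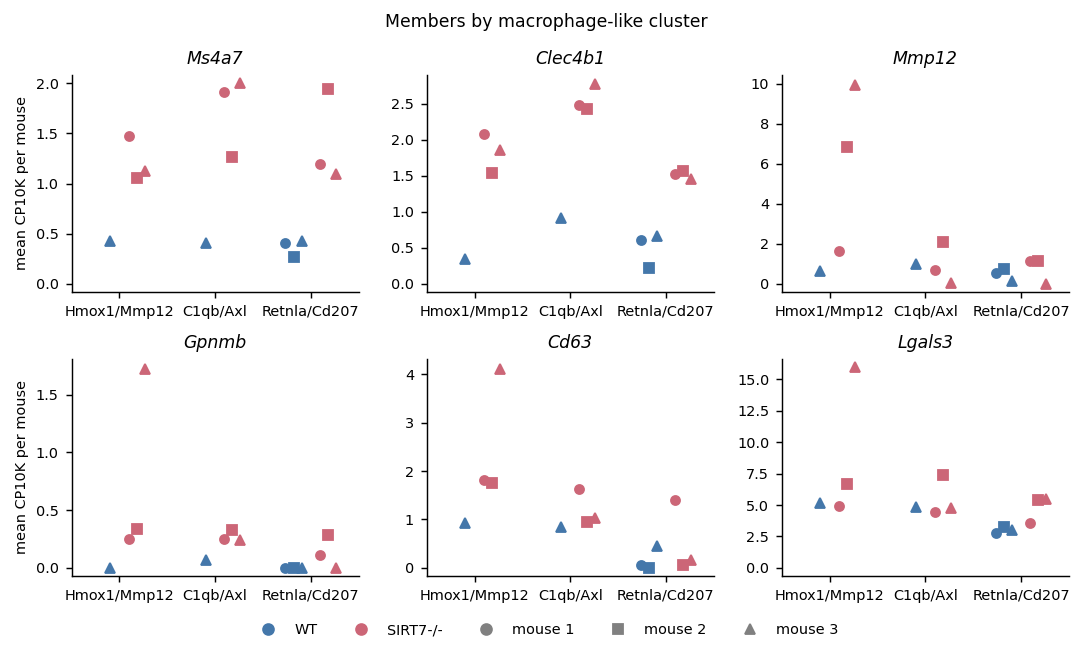
Mean CP10K per mouse of 6 members in each of the 3 macrophage-like clusters, named by leading genes, with a point for each mouse that has at least 15 cells of the cluster (WT blue, SIRT7-/- red, shapes for the mouse number). Ms4a7 and Clec4b1 separate the genotypes inside the Retnla/Cd207 cluster, the only one with points for all 3 WT mice; the highest Mmp12, Gpnmb, Cd63 and Lgals3 points, of SIRT7-/- mouse 3, include the single cell described in the text.

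Other values also differed among the mice, and the share of hepatocyte marker UMIs overlapped between the genotypes. The median share of hepatocyte marker UMIs was 0.737%, 0.580% and 0.527% in the macrophage-like cells of the WT mice and 0.474%, 0.0632% and 0.528% in those of the SIRT7-/- mice. Dissociation and immediate-early genes, the transcripts that tissue digestion is known to induce, had a median log2 fold change of -0.43 over the 16 tested, with 5 below and 1 above all WT mice, 0 past the threshold in limma and 7 at an unadjusted p under 0.05. Of all 9762 genes tested, 898 lay below and 707 above all WT mice, and 1015 had an unadjusted p under 0.05. The part of the dissociation genes in the members' differences was not tested. Cells with basophil markers averaged 16.1, 39.4, 17.1, 24.0 and 1.10 CP10K of Cd63 in WT mice 1 and 2 and SIRT7-/- mice 1 to 3, with 1, 2, 11, 2 and 1 such cells, and the 17 cells were left out of all classes.

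In monocyte-like cells all 10 members were tested. Of the 10, 5 had all SIRT7-/- mice above all WT mice, beside 4.81% of all genes tested, and 1 passed the threshold, beside 0.192% of all genes tested. The median log2 fold change of the members was 1.32, beside -0.03 over all genes. The call was lost without WT mouse 2, WT mouse 3 or SIRT7-/- mouse 3, and 4 members were called without SIRT7-/- mouse 1. Monocytes were among the cells on which the members were chosen, so nothing is read from these counts either.

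Lgals1 and Lgals3 rested on more UMIs in these cells than any of the other 8 members, in every mouse. Lgals1 averaged 3.26, 3.15 and 2.79 CP10K in the monocyte-like cells of WT mice 1 to 3 and 6.45, 6.63 and 5.20 in those of SIRT7-/- mice 1 to 3, a log2 fold change of 0.97 ± 0.22. Lgals3 averaged 9.15, 9.90 and 8.85 CP10K in the WT mice and 12.7, 12.8 and 16.2 in the SIRT7-/- mice, a log2 fold change of 0.57 ± 0.19. Neither gene overlapped between the genotypes, and both were higher in monocyte-like than in macrophage-like cells of the same mouse in 6 of 6 mice. When the clustering was made finer (resolution 1.2), monocytes and type 2 dendritic cells separated. In the remaining monocyte-like cells Lgals1 averaged 1.79, 2.23 and 1.86 CP10K in the WT mice and 4.41, 4.76 and 4.22 in the SIRT7-/- mice, and Lgals3 averaged 9.18, 9.95 and 9.71 in the WT mice and 14.7, 15.1 and 17.4 in the SIRT7-/- mice.

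Cd63, the 1 member of that count, rested on few molecules in monocyte-like cells. It had 2, 0 and 0 UMIs in the WT mice and 31, 48 and 29 in the SIRT7-/- mice, with means of 0.106, 0 and 0 CP10K and of 0.359, 0.579 and 1.30. The pooled ratio was 22.0 (exact 95% interval 5.95 to 184). Ms4a7 averaged 0.0532, 0.0463 and 0.125 CP10K in the WT mice and 0.310, 0.530 and 1.05 in the SIRT7-/- mice, on 1, 1 and 3 UMIs in the WT mice, and its log2 fold change was 2.35 ± 0.54. In each of the 6 mice Ms4a7 was lower here than in macrophage-like cells. Spp1 had 0 UMIs in the WT and 23 in the SIRT7-/- monocyte-like cells, at least 3.13-fold higher against 3 UMIs over the WT mice. However, 13 of the 23 came from 1 cell of SIRT7-/- mouse 3, and the 2 of SIRT7-/- mouse 1 from 1 cell. The Spp1 mean of SIRT7-/- mouse 1, 0.0554 CP10K, lay below the limits from 3 UMIs in WT mice 1 to 3 (0.169, 0.271 and 0.136). Trem2 overlapped in these cells, at 0.189, 0.508 and 0.471 CP10K in the WT mice and 0.453, 0.343 and 0.574 in the SIRT7-/- mice. Gpnmb, Mmp12, Cd9 and Clec4b1 also overlapped, with log2 fold changes of 1.66 ± 0.71, 2.14 ± 0.72, 0.32 ± 0.29 and 0.66 ± 0.34. Clec4b1 averaged 1.13, 0.702 and 1.69 CP10K in the WT mice and 1.75, 1.26 and 2.54 in the SIRT7-/- mice. In the monocyte-like cells that the finer clustering left, it averaged 0.929, 0.598 and 1.197 in the WT mice and 0.594, 0.579 and 1.67 in the SIRT7-/- mice, with SIRT7-/- mice 1 and 2 below all WT mice and a log2 fold change of -0.06 ± 0.47. A test of whether a gene's difference was larger in macrophage-like than in monocyte-like cells of the same mice called 0 of the 10350 genes in limma (0% of all tested), with 584 at an unadjusted p under 0.05.

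**Figure D3:**
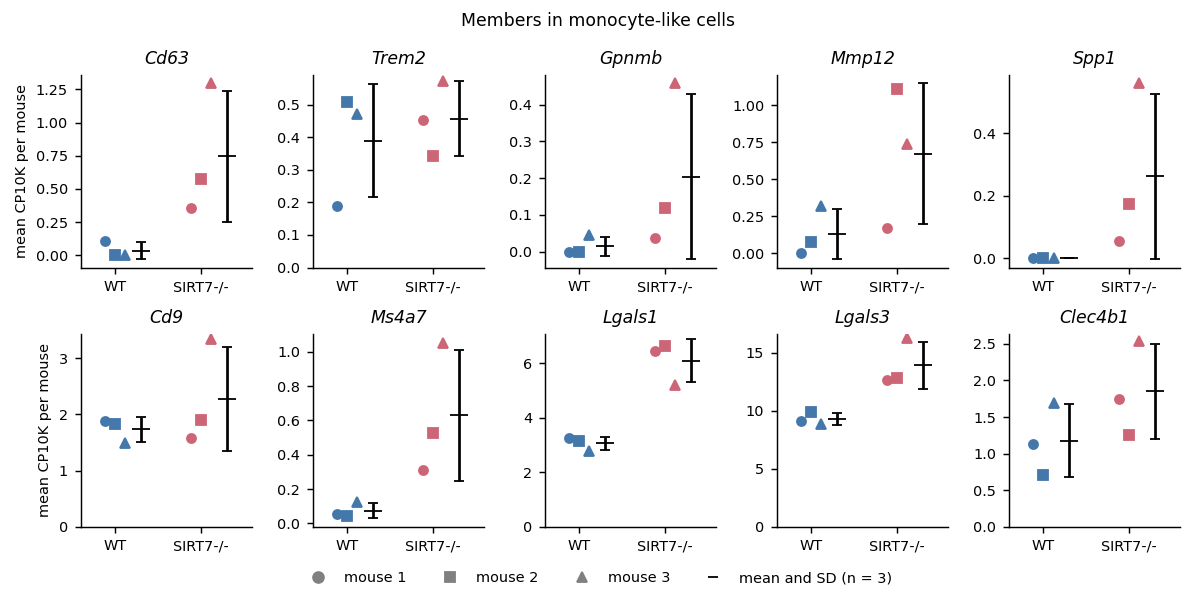
Mean CP10K per mouse of each member in monocyte-like cells, drawn as for macrophage-like cells, with the mean and SD of 3 mice beside the points of each genotype. The genotypes stand apart for Cd63, Ms4a7, Lgals1 and Lgals3 and overlap for Trem2, Gpnmb, Mmp12, Cd9 and Clec4b1. Spp1 is 0 in the WT mice, but its point of SIRT7-/- mouse 1 (0.0554) is below the limit from 3 UMIs in each WT mouse.

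Macrophage markers also moved in these cells. The sum of 11 Kupffer cell and macrophage markers in monocyte-like cells was 8.31, 1.18 and 13.5 CP10K in the WT mice and 28.6, 19.2 and 20.4 in the SIRT7-/- mice, with between 6 and 11 of the 11 above 0, and in macrophage-like cells it was 189 to 244 in WT and 252 to 283 in SIRT7-/- mice. Their part in the members' monocyte-like values was not tested.

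Dendritic-like cells gave values only. In conventional dendritic-like cells Cd9 averaged 3.47, 4.34 and 2.68 CP10K in the WT mice and 2.86, 3.44 and 5.06 in the SIRT7-/- mice, above its level in macrophage-like cells of the same mouse in all 6. The genotypes overlapped for Cd9 and for Lgals3, which lay between 4.63 and 5.88 CP10K in all mice. Ms4a7 had 0 UMIs in the WT mice and averaged 0.375, 0.406 and 0 CP10K in the SIRT7-/- mice. WT mice 1 and 2 had only 8 and 10 conventional dendritic-like cells and SIRT7-/- mouse 3 had 7. The 0 of Ms4a7 allows up to 0.518, 0.340 and 0.112 CP10K in WT mice 1 to 3. The macrophage marker sum there was 0.413, 0.705 and 9.24 in the WT mice and 51.0, 28.6 and 15.1 in the SIRT7-/- mice. Plasmacytoid dendritic-like cells held the highest Lgals1, at 41.7, 27.4 and 13.3 CP10K in WT mice 1 to 3 and 18.6, 20.9 and 10.6 in SIRT7-/- mice 1 to 3. WT mice 1 and 2 had only 6 and 5 of these cells and SIRT7-/- mouse 3 had 2, and the highest value was from a WT mouse.

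The members were not chosen on hepatocytes, lymphocytes or endothelial cells, so a test is given there. In B-like and plasma-like cells Lgals1 averaged 0.918, 0.775 and 1.77 CP10K in WT mice 1 to 3 and 3.85 and 3.76 in SIRT7-/- mice 1 and 2, a rise of 1.77 ± 0.48 on the log2 scale (limma, adjusted p = 0.0372 over 8802 genes). SIRT7-/- mouse 3 had 16 of these cells, too few for the fit, and its mean of 2.62 also lay above the WT mice. The call was lost when any 1 of the 5 mice was left out, and when SIRT7-/- mouse 3 was added. The class joined a plasma cell and a B cell cluster in unequal parts, with 12, 20 and 130 plasma and 24, 15 and 22 B cells in WT mice 1 to 3 and 128, 135 and 14 plasma and 70, 25 and 2 B cells in SIRT7-/- mice 1 to 3. The sum of 7 neutrophil markers there was 0, 0.0223 and 0.202 CP10K in the WT mice and 15.4, 11.6 and 0.0349 in the SIRT7-/- mice, and that of 8 T cell markers was 0, 0.0274 and 1.55 in the WT mice and 3.23, 3.36 and 0 in the SIRT7-/- mice. Their part in the Lgals1 difference was not tested. Lgals1 was the 1 of 4 members tested there that was called, beside 0.591% of all genes, and 3 of the 4 did not overlap, beside 9.46%. Cd63, among the 3, passed the filter only through the SIRT7-/- mice, with 0, 0 and 4 UMIs in WT mice 1 to 3. It had 5 and 8 UMIs in SIRT7-/- mice 1 and 2 and 0 in SIRT7-/- mouse 3, with which the genotypes would overlap.

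In the other cells 0 members were called in limma, with 5, 2 and 2 at an unadjusted p under 0.05 in T-like and NK-like, endothelial-like and hepatocyte-like cells. Of all genes tested, 703 of 9998, 770 of 10664 and 1039 of 10267 had an unadjusted p under 0.05 in these classes. T-like and NK-like cells had 7 members tested, with 0.12% of all genes called, and 4 of the 7 had all SIRT7-/- mice above all WT mice, beside 5.11%. Ms4a7, among the 4, passed the filter only through the SIRT7-/- mice, at 0.0234, 0 and 0.0132 CP10K in WT mice 1 to 3. Such a member could hardly lie lower in SIRT7-/- mice, so its place in the count is not read. Lgals1 there averaged 3.77, 5.19 and 3.15 CP10K in the WT mice and 6.00, 9.90 and 5.41 in the SIRT7-/- mice (adjusted p = 0.471), and Lgals3 averaged 0.635, 1.98 and 1.29 in the WT mice and 2.99, 2.43 and 2.15 in the SIRT7-/- mice (adjusted p = 0.462). In endothelial-like cells of 3 WT and 2 SIRT7-/- mice, 6 members were tested, with 0.225% of all genes called, and 3 did not overlap, beside 9.52%. Their Lgals3 averaged 0.0570, 0 and 0.374 CP10K in the WT mice and 0.708 and 1.02 in the SIRT7-/- mice (adjusted p = 0.139), and 1 member was called there without WT mouse 3. Hepatocyte-like cells, without the larger unnamed cluster, had 4 members tested, with 0.234% of all genes called. The median log2 fold change of all genes was 0.20 in these cells. Of the 4 members, 1 did not overlap, beside 12.8%. That member was Lgals1, at 0.368, 0.234 and 0.137 CP10K in the WT mice and 0.845, 0.894 and 0.394 in the SIRT7-/- mice (adjusted p = 0.349).

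Macrophage genes were found in these cells too. C1qa averaged 0.0925, 0.0275 and 0.298 CP10K in the T-like and NK-like cells of the WT mice and 0.743, 0.383 and 0.0850 in those of the SIRT7-/- mice, against 35.9 to 51.5 in macrophage-like cells. In the same cells the sum of 5 cycling cell markers was 1.05, 2.60 and 3.12 CP10K in the WT mice and 6.07, 14.5 and 3.68 in the SIRT7-/- mice. That of 7 NK and innate lymphoid markers was 9.08, 15.4 and 13.2 in the WT mice and 22.5, 22.1 and 47.3 in the SIRT7-/- mice. The part of C1qa, of cycling cells and of the mix of T and NK cells in the members' values there was not tested. Lgals1 had its SIRT7-/- mice above its WT mice in 5 of the 6 classes fitted with every mouse included, and in endothelial-like cells without SIRT7-/- mouse 3. The share of all genes that did so ran from 4.81% to 12.8% over the fitted classes. Among the 5, the macrophage-like and monocyte-like classes are cells on which the members were chosen. The nearest mice were at 0.394 against 0.368 CP10K in hepatocyte-like and 5.41 against 5.19 in T-like and NK-like cells. In both dendritic-like classes the genotypes overlapped for Lgals1.

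**Figure D4:**
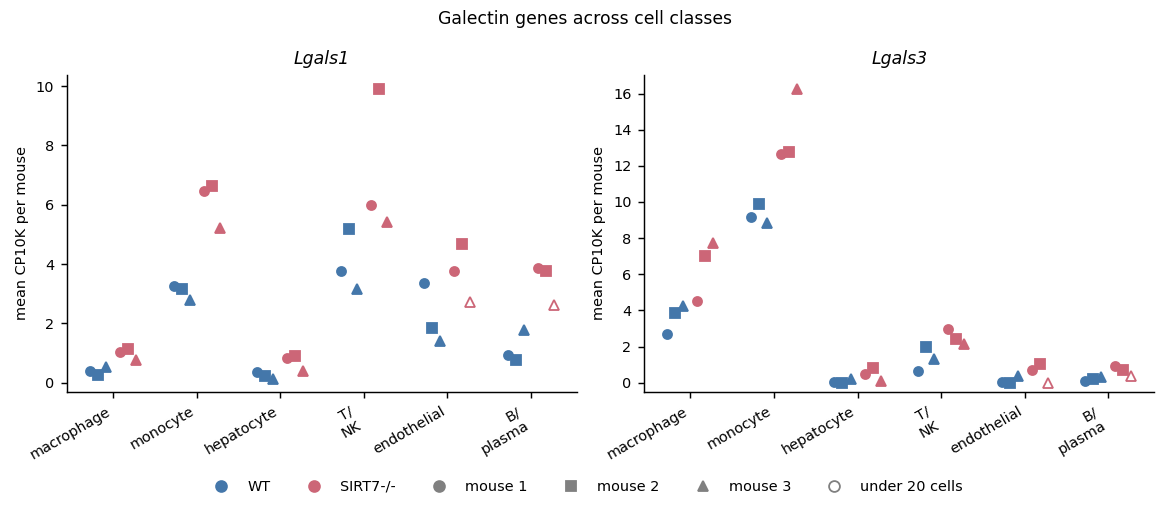
Mean CP10K per mouse of Lgals1 (left) and Lgals3 (right) in the 6 fitted classes, WT in blue and SIRT7-/- in red, with shapes for the mouse number and open symbols for mice with under 20 cells, which no fit used. Both genes are highest in monocyte-like cells among the myeloid classes shown, and Lgals1 is as high in T-like and NK-like cells (3.15 to 9.90).

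Other genes of the same biology were followed as lists in macrophage-like cells. The lists were chosen with earlier results of these data known, so their counts and calls are a description. Of all 9762 genes tested in these cells, 1015 had an unadjusted p under 0.05. All SIRT7-/- mice lay above all WT mice for 707 of the 9762 and below for 898. These are the background of every list count below. Of the other lipid-associated macrophage genes, 35 of 40 were tested, 2 rose, 0 fell and 33 did not pass (20 of the 35 at an unadjusted p under 0.05). All SIRT7-/- mice lay above all WT mice for 21 and below for 0, beside 7.24% above over all genes, with a median log2 difference of 0.48 beside -0.03 over all genes. Ctsd, the lysosomal protease cathepsin D, averaged 11.8, 8.02 and 10.2 CP10K in the WT mice and 29.6, 26.2 and 23.8 in the SIRT7-/- mice, a rise of 1.42 ± 0.18 on the log2 scale (limma, adjusted p = 0.00811). Lipa, the lysosomal acid lipase, averaged 3.05, 1.66 and 2.84 CP10K in the WT mice and 6.44, 6.07 and 7.62 in the SIRT7-/- mice, a rise of 1.44 ± 0.24 (adjusted p = 0.0260). Neither overlapped between genotypes, but both calls were lost without any 1 of WT mice 1, 2 or 3 or of SIRT7-/- mouse 3. Ctsd was also higher in monocyte-like cells, at 0.573, 1.26 and 1.17 CP10K in the WT mice and 4.11, 4.10 and 4.99 in the SIRT7-/- mice. The macrophage marker sum was higher in those SIRT7-/- cells too, and its part in the Ctsd difference was not tested. The most abundant genes of the list did not pass: Apoe, the lipid carrier apolipoprotein E, averaged 75.9, 44.2 and 57.7 CP10K in the WT mice and 153, 55.6 and 54.6 in the SIRT7-/- mice, with only SIRT7-/- mouse 1 high, and Ftl1 and Ctsb had log2 differences of 0.47 ± 0.14 and 0.43 ± 0.15.

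Of 27 other recruited monocyte-derived genes tested, 0 passed in limma (9 at an unadjusted p under 0.05, and 2 called with voom on summed UMIs). All SIRT7-/- mice lay above all WT mice for 2, beside 7.24% of all genes tested, and below for 1. The median log2 fold change was -0.01. Lyz2, the macrophage lysozyme, differed by 0.18 ± 0.18, and Cebpb, a myeloid transcription factor, by -0.80 ± 0.18 with all SIRT7-/- mice below the WT mice. Among Kupffer identity genes 0 of 26 passed (11 at an unadjusted p under 0.05), 10 lay above and 2 below in all SIRT7-/- mice, and the median was 0.30, with C1qa, C1qb and Cd5l at differences of 0.30 ± 0.15, 0.54 ± 0.15 and 0.51 ± 0.13. In the TREM2 signalling list, 0 of 15 passed (1 at an unadjusted p under 0.05) and the median was 0.22; Tyrobp, the adaptor of TREM2, averaged 16.0, 12.4 and 20.03 CP10K in the WT mice and 26.3, 24.8 and 24.9 in the SIRT7-/- mice.

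The members' relatives by family were also tested, with 0 past the threshold in each list by limma; at an unadjusted p under 0.05 there were 4 C-type lectins, 2 MS4A genes, 1 galectin, 2 metalloproteinases or inhibitors, 2 tetraspanins and 4 osteopontin receptors. The neighbouring C-type lectins of Clec4b1 had a median log2 fold change of 0.82 over 5 genes, with 4 above all WT mice. The MS4A family had a median of 0.53 over 6, the galectins 0.45 over 3, the matrix metalloproteinases and inhibitors 0.34 over 7, the tetraspanins 0.14 over 14 and the osteopontin receptors 0.03 over 8. Ribosomal protein genes, a list kept for comparison, had a median of 0.24 over 78, with 0 past the threshold and 15 at an unadjusted p under 0.05. The median of the members, which were chosen on this contrast, was 2.0.

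**Figure D5:**
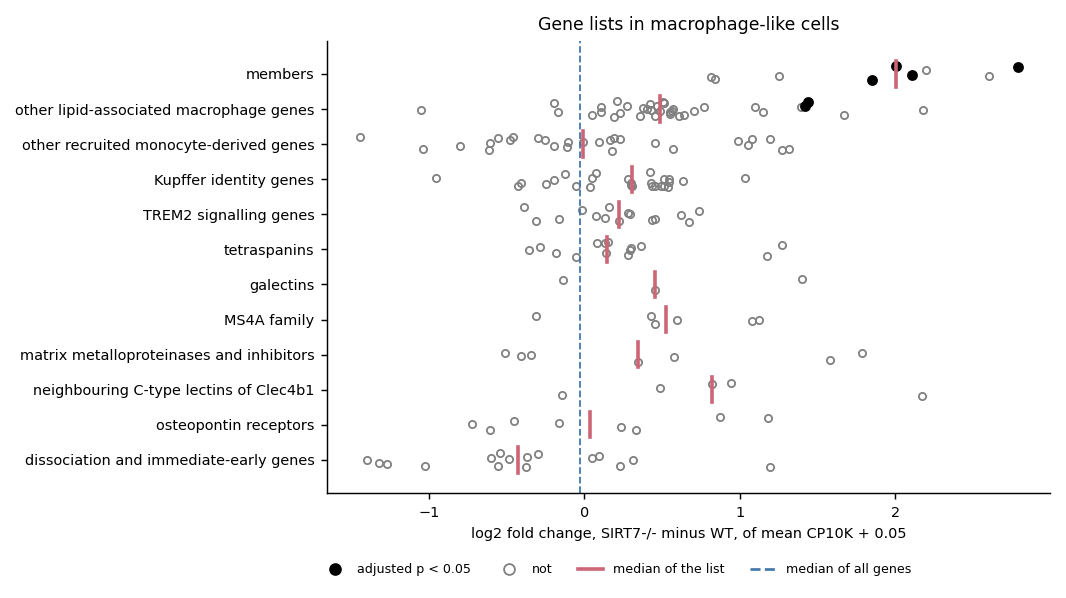
Log2 fold change (SIRT7-/- minus WT, of mean CP10K plus 0.05) of each tested gene in macrophage-like cells, by list; filled points passed an adjusted p of 0.05, red bars are list medians and the dashed line is the median of all genes. Outside the members, Ctsd and Lipa are the only filled points.

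Sirt7 itself was checked over all cells and averaged 0.718, 0.512 and 0.546 CP10K in the WT mice and 0.10, 0.0814 and 0.139 in the SIRT7-/- mice (p = 0.1, a two-sided exact permutation over mice that cannot go lower with 3 against 3); 3' reads need not cover the deleted part of the gene. The monocyte-like share of macrophage-like and monocyte-like cells was 46.0%, 40.3% and 40.3% in the WT mice and 13.9%, 35.5% and 35.0% in the SIRT7-/- mice (p = 0.1 by the same exact permutation), and SIRT7-/- mouse 1, with 2196 macrophage-like cells, stood apart. The direction of that difference turned, from -14.1 to 5.63 percentage points, when neighbors were not balanced over mice in the clustering. Of all barcodes, 13 were shared by cells of different mice.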

How the data were processed

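Livers of 3 WT and 3 SIRT7-/- mice were measured by 10x Genomics 3' single-cell RNA sequencing. Per the methods and labels, the authors aligned reads to mm10 with Cell Ranger 6.0.0, removed cells with under 500 genes and those rich in mitochondrial genes, and scaled each cell to 10000. The deposited values are on the natural log scale, ln(CP10K + 1). All 12961041 values above 0 gave whole UMIs within 0.02, and 0 columns of other samples were present. UMIs were worked back from the values. Depth was 2511947 to 11069411 UMIs per mouse.

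The table names no cell types. Cells were clustered with scanpy 1.11.5 and leidenalg 0.10.2 on 3 neighbors per mouse, first at resolution 0.35 and, for myeloid cells, at 0.8, and clusters were named from markers, with at least 3 detected. The second clustering, the setting aside of 17 cells with 3 or more basophil marker UMIs, and the exclusion of mixed clusters were chosen after values were seen. Scrublet marked 46 of 11610 cells (0.396%) and was taken not to have worked, so doublets remain. For each class, CP10K was averaged per mouse, 0.05 was added, and the log2 values were fitted with limma 3.58.1 (R 4.3.3, trend and robust). A class needed 20 or more cells in at least 2 mice per genotype and a gene 0.05 CP10K on average, with Benjamini-Hochberg adjustment over all genes tested. The authors' MAST test over cells was not used, since cells of a mouse are not replicates. The dendritic classes planned for a fit lacked the mice, and the test between macrophage-like and monocyte-like differences was not planned. Single values were compared by the exact permutation test over mice. Intervals, and limits from 3 UMIs of a mouse's total, cover counting error only. The pipeline was tested on simulated data.

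The members and gene lists were chosen with earlier results of these data known. Named genes were all members, list genes past the threshold and the most abundant of each list; the cell with 173 Mmp12 UMIs was singled out after its values were seen. Promoters, positions and names came from RefSeq tables of GRCm38.p6, whose coordinates are those of mm10. Alternatives covered the offset, filter, normalization, voom on summed UMIs, thinning, cell filters, clustering, and leaving out each mouse.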

Additional observations from a re-analysis of the deposited data

How the results depend on the processing

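In macrophage-like cells the log2 fold change of each tested member stayed higher in SIRT7-/- mice in 197 of 197 values under other alternatives and in 54 of 54 with a mouse left out; in monocyte-like cells this held for 183 of 184 and 57 of 58. The members were chosen on these differences in the same mice, so an unchanged direction is not read as support. Calls were less stable than directions. Members called in macrophage-like cells numbered 4, and 2 with offsets of 0.2 or 0.01 CP10K, with voom on summed UMIs, when thinned, or without the cell of most member UMIs of each mouse, 1 with plain neighbors, 0 with no filter or in the Retnla/Cd207 cluster alone, and 0 to 5 with a mouse left out (0 without WT mouse 1, WT mouse 2 or SIRT7-/- mouse 3, and 1, Cd63, without WT mouse 3). In monocyte-like cells the 1 call became 2 with an offset of 0.2, with centring or without the cell of most member UMIs, 0 with an offset of 0.01, a filter of 0.2, voom, 40 cells a mouse, plain neighbors or resolution 1.2, and 0 to 4 with a mouse left out. Endothelial-like cells gained 1 call with an offset of 0.2, with no filter or without cells over 2% hepatocyte markers, and had 0 to 1 with a mouse left out. The B-like and plasma-like call fell to 0 with an offset of 0.01, a filter of 0.2, no filter, ln values, 10 cells a mouse, plain neighbors or thinning, and to 0 without any mouse. Dendritic-like cells at 10 cells a mouse gave 0 members called, also against macrophage-like cells.

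Genes called in macrophage-like cells, 22, became 14 with an offset of 0.01, 1 with no filter, 54 with ln values, 35 with plain neighbors, 34 with basophils kept and 1 to 127 with a mouse left out. The 2 lipid-associated list genes became 0 with no filter and 0 to 2 with a mouse left out; the 0 recruited genes became 1 with ln values, centring or thinning, 2 with voom and 0 to 3 with a mouse left out; the 0 Kupffer genes became 2 with plain neighbors; and family and signalling genes 0 to 1 with a mouse left out. The monocyte-like share difference of -14.1 points turned to 5.63 with plain neighbors and was -17.7 to -6.93 with a mouse left out.

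The labels do not say whether mouse numbers pair the samples. Same-number deviations correlated at 0.05, 0.01 and -0.04 in macrophage-like cells, and those of unlike numbers at -0.11 to 0.11. With 3 mice per genotype these values cannot decide it. With the replicate block, members called were 8 in macrophage-like, 3 in monocyte-like and 1 in endothelial-like cells, genes called 219, and lipid-associated, recruited, Kupffer and family list genes 5, 4, 1 and 5. Depth limits Gpnmb, Spp1 and Cd63 in macrophage-like and monocyte-like cells, Trem2 in macrophage-like cells, and Ms4a7 and Mmp12 in monocyte-like cells. Each had 0 to 2 UMIs in at least 1 WT mouse. The causes were not tested. Basophils, mixed clusters, first clustering, hepatocyte totals, cluster alone and single cells were alternatives chosen after seeing the data.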
